A study of Mus musculus with 62 samples.

Results

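The neocortex of mice carrying a cachexia-inducing melanoma was compared with that of mock-injected mice 8 weeks after injection. The comparison holds the 7 libraries labelled CAC at 8 weeks and the 5 labelled Con (mock) at 8 weeks, 12 of the 62 libraries of the series, chosen by their labels alone and run on the same sequencing lane. Each library measures polyadenylated RNA from the neocortex of female mice injected at 2 months of age, and the labels number the libraries of a group as replicates. CAC mice received melanoma cells that cause cachexia, and mock mice received an injection without tumour cells. Values for mice given melanoma cells that do not cause cachexia (NCAC, 5 libraries at 8 weeks) and for CAC and mock mice at 6 weeks (10 libraries) stand beside some results. The design text names athymic nude mice, which lack a thymus and therefore most T cells, whereas the sample labels name C57BL6/J, so the strain is uncertain. Levels are in TPM (transcripts per 1000000 transcripts), in which every library sums to 1000000, and the steps of the low values gave an estimated 46400000 to 49700000 reads per library. A transcript with 2000 exon bases at 1 TPM corresponds to 26.3 to 27.9 reads, so values well under 1 TPM rest on few reads. Fold changes are differences of log2(TPM + 1), which understate the changes of genes with low levels.

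Many tumours bring on cachexia, the loss of muscle and fat tissue, and the brain receives its signals through hormones, cytokines and nutrients carried in the blood. Brain endothelial cells form the blood-brain barrier and are the first cells to meet these signals, and astrocytes wrap the vessels and pass fuels and amino acids on to neurons. Glucocorticoids, which rise in prolonged illness and food shortage, act through a nuclear receptor that switches on genes for fuel saving, protein breakdown and restraint of inflammation in nearly every brain cell type.

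Cortical neuron markers were high in all 12 libraries. Slc17a7, the vesicular glutamate transporter of cortical excitatory neurons, lay between 986 and 1240.4 TPM in CAC and between 1049.8 and 1173 TPM in mock libraries, and 0 of 12 excitatory neuron markers differed (adjusted p = 0.652 for Slc17a7). The pigment cell genes Mlana and Pmel reached 0.121 and 1.59 TPM at most. Markers of other tissues were present as well. The 11 striatum markers summed to 1504.2 to 1781.1 TPM in CAC and 1593.4 to 1979.6 TPM in mock libraries, with 0 called. The 12 choroid plexus markers summed to 237.3 to 3018.3 TPM in CAC (median 330.2) and 856.5 to 2819.8 TPM in mock libraries (median 1297). Of these, 0 were called and 11 had log2 fold changes below 0. Their part in the group differences was not tested. A pair of libraries stood apart from their groups. CAC replicate 3 held the erythroid genes far above all others: the 4 haemoglobin genes Hba-a1, Hba-a2, Hbb-bs and Hbb-bt summed to 22447 TPM, against 156 to 2387 TPM in the other 6 CAC libraries and 880 to 2160 TPM in the mock libraries. Mock replicate 5 held immunoglobulin and MHC class II genes far above all others, with Igkc at 652 TPM against 0.407 to 3.93 TPM in the other 4 mock libraries. Results that rest on either library are given with and without it.

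Of 15092 tested genes, 1289 differed between CAC and mock at an adjusted p under 0.05 (limma), which is 8.54% of the genes tested. Of these, 734 were higher in CAC (4.86%) and 555 lower (3.68%), and the median log2 fold change of all tested genes was 0.014. Scaling by a trimmed mean instead of TPM moved this split to 678 higher and 722 lower, or 48.4% higher in place of 56.9%. The 7 CAC values lay wholly outside the 5 mock values for 477 genes (3.16%), above them for 218 (1.44%) and below them for 259 (1.72%). The count of calls was 798 without CAC replicate 1, 747 without CAC replicate 6 and 1826 without CAC replicate 3, and 0 of the called genes named here changed direction under any alternative that was run. The lists overlap: of 232 called genes on any list, 30 stand on more than 1 (12.9%), among them 13 of the 22 called glucocorticoid genes (59.1%), so their counts are not independent. The plot of gene lists shows where many of the calls gathered. On the higher side were glucocorticoid induced genes, targets of FOXO factors, and interleukin 6 family and STAT3 genes. Metal genes gave calls on both sides, 7 higher and 3 lower of 22. On the lower side were cholesterol synthesis, microglia, oligodendrocyte and fatty acid synthesis genes.

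**Figure D1:**
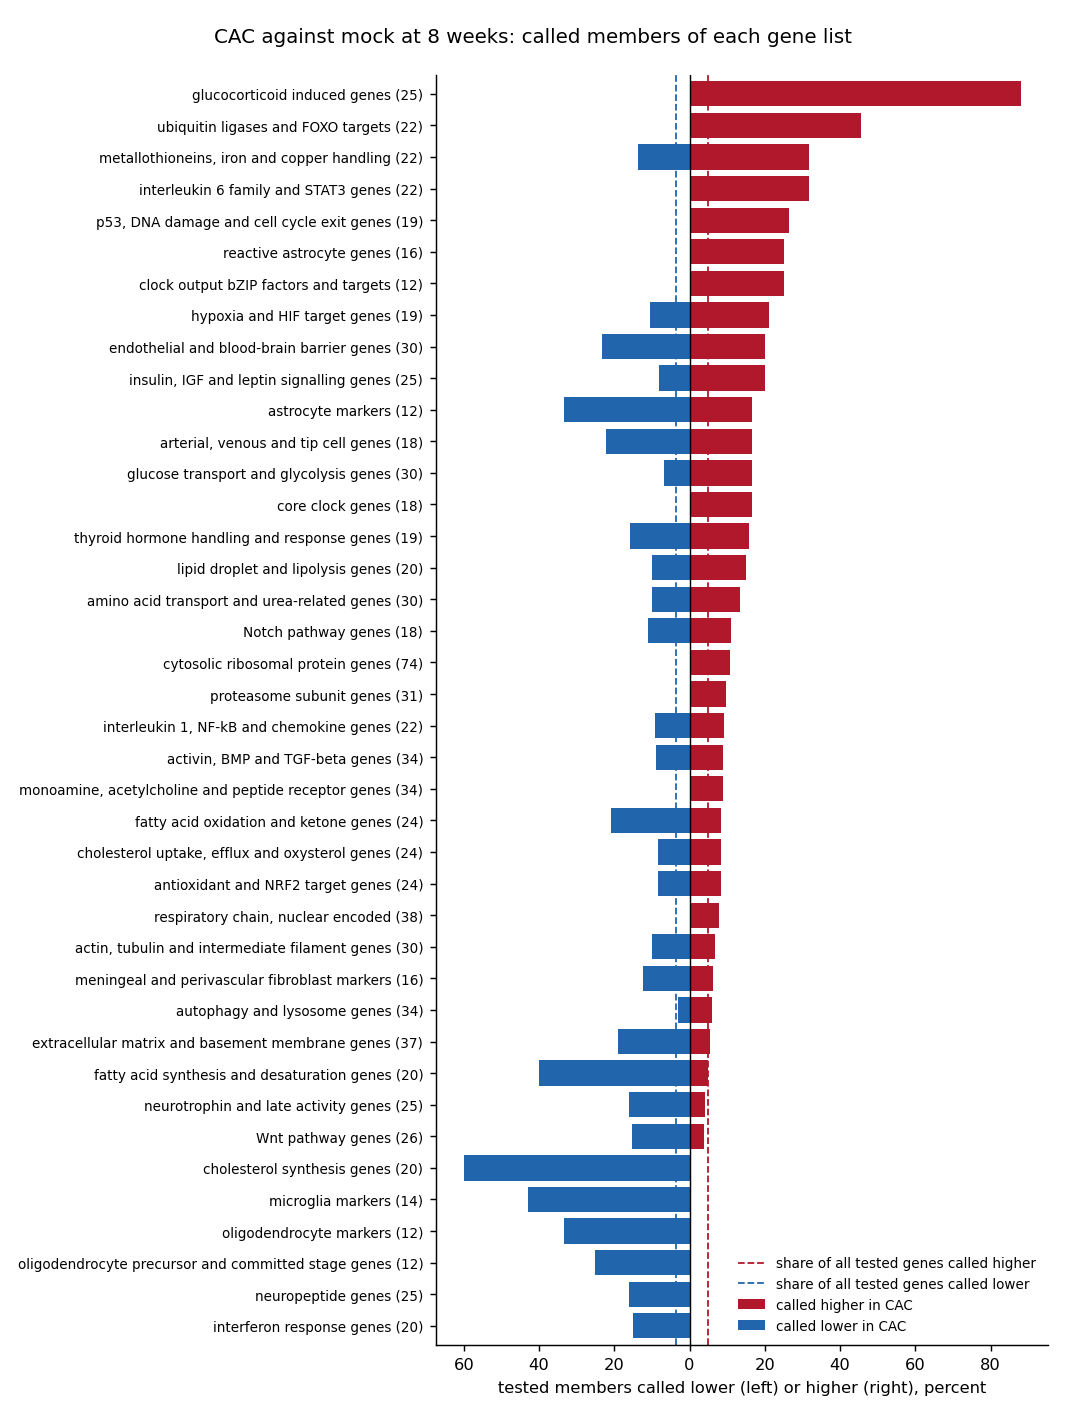
Share of tested members called higher (to the right) or lower (to the left) in CAC than in mock at 8 weeks, in percent, for lists with at least 10 tested and 3 called members. Dashed lines mark the shares over all tested genes, 4.86% higher and 3.68% lower. The glucocorticoid list reaches 22 of 25 members higher and the cholesterol list 12 of 20 lower. The lists were chosen with earlier results of these data known, so the shares are not a test.

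Of 25 tested glucocorticoid induced genes, 22 rose, with a median log2 fold change of 0.76. The lists were chosen with earlier results of these data known, so this count is a description and not a test. The list had 22 risen members without CAC replicate 3, with a median of 0.89, and had 18 without mock replicate 5. Map3k6, a stress-activated kinase, ranged from 1.25 to 10.4 TPM across CAC libraries with a median of 6.65, and the mock values were 0.844, 0.526, 1.16, 1.32 and 1.95 TPM. Its lowest CAC value belonged to replicate 3 and lay inside the mock range, and the other 6 lay above all mock libraries (log2 fold change 1.76 ± 0.28 SE, adjusted p = 2.67e-05). Sgk1, a kinase of the insulin and mineralocorticoid pathways whose name was chosen after its values were seen, stood at 65.1 TPM in CAC replicate 3, at 81.7 to 116 TPM in the other 6 and at 37, 29.9, 36, 39.6 and 38.8 TPM in the mock libraries (log2 fold change 1.39 ± 0.24 SE, adjusted p = 0.000102). Its CAC values therefore lay wholly above the mock values, with replicate 3 nearest to them.

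The promoter of Sgk1 is shown because the full palindromic glucocorticoid receptor motif, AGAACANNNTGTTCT, occurs there and in few other windows. Promoter sequences run from 250 bases before to 50 bases after an annotated start (RefSeq, GRCm38.p6), both strands were searched, and capitals mark the match. The window of 1 of the 6 listed Sgk1 starts, chr10:21993640-21993939 on the plus strand, holds the motif with its first base at position -189:
Sgk1: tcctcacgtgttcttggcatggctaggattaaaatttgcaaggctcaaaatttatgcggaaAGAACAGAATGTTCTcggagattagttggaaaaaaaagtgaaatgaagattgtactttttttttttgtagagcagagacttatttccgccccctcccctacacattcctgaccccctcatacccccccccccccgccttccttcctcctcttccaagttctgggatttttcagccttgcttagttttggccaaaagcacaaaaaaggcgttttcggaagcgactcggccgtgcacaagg
The motif was found in 3 of 32851 promoter windows (0.00913%) and in 1 of the 21 glucocorticoid genes with a window. Its right arm alone, TGTTCT, was found in 19% of all windows. Counted by gene, it was found in 4 of these 21 (19%) against 15.1% of the 11114 tested genes with a window. A match describes the letters of the window and is not a measured binding site, and the motif of a distant enhancer would not be seen.

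Endothelial and blood-brain barrier genes moved in both directions. Of 30 tested, 6 rose and 7 fell. Without CAC replicate 3 there were 10 that rose and 8 that fell, and without CAC replicate 1 there were 4 that fell. In bulk tissue, fewer cells of a type and less RNA per cell cannot be told apart. Kdr, the main receptor of endothelial cells for vascular endothelial growth factor, ranged from 2.66 to 5.67 TPM in CAC with a median of 4.52, and the mock values were 8.39, 8.55, 7.41, 7.86 and 7.06 TPM. All 7 CAC values lay below all mock values (log2 fold change -0.78 ± 0.13 SE, adjusted p = 9.52e-05). Its ligand gene Vegfa ranged from 22.2 to 45.2 TPM with a median of 28.2, against mock values of 52.7, 45.6, 45.8, 50.3 and 40.8 TPM. The highest CAC value, 45.2 TPM, belonged to replicate 3 and overlapped the mock range, and the other 6 lay at or below 29.2 TPM (log2 fold change -0.71 ± 0.12 SE, adjusted p = 9.52e-05). The receptors Eng, a co-receptor for TGF-beta family ligands, and Tie1 fell as well (log2 fold changes -0.42 and -0.31, adjusted p = 0.00766 and 0.00932). Eng lost its call when only the 8 week groups were fitted.

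The 6 risen members of the endothelial and blood-brain barrier list included Ly6c1, Podxl and Slc2a1. Ly6c1, a surface protein of brain microvessels, ranged from 75.3 to 129 TPM in CAC with a median of 110.4, and the mock values were 53.4, 56.3, 58.9, 57.3 and 66.6 TPM. Every CAC library exceeded every mock library (log2 fold change 0.86 ± 0.10 SE, adjusted p = 8.24e-08). Ly6c1 has near-identical neighbours, so reads may be shared with Ly6c2, which also rose (log2 fold change 0.79, adjusted p = 0.000284). Podxl, a sialomucin of the luminal membrane, ranged from 25 to 52 TPM against mock values of 21.9, 21, 20.9, 19.8 and 20.3 TPM, again without overlap (log2 fold change 0.79 ± 0.13 SE, adjusted p = 2.8e-05). Slc2a1, the glucose transporter of the barrier, ranged from 105 to 170.0 TPM with a median of 145, against 83.3, 73, 88.1, 97.9 and 118 TPM in mock libraries (log2 fold change 0.64 ± 0.15 SE, adjusted p = 0.00397). Only the highest mock value, that of replicate 5, reached into the CAC range.

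Vessel zones differed too: of 18 arterial, venous and tip cell genes, 3 rose and 4 fell. Apln, the apelin ligand of sprouting tip cells, lay at 7.95 to 19.7 TPM in CAC and at 23 to 28.2 TPM in mock libraries (log2 fold change -1.10 ± 0.16 SE, adjusted p = 4.64e-06). Vwf, the clotting factor stored in venous endothelium, ranged from 7.04 to 17 TPM with a median of 12.1, and the mock values were 4.66, 4.64, 4.58, 4.89 and 11.2 TPM. The value of mock replicate 5 lay inside the CAC range and the other 4 below it (log2 fold change 0.94 ± 0.17 SE, adjusted p = 0.000189). Mgp, an inhibitor of BMP signalling and calcification, and Plvap, the diaphragm protein of leaky endothelium, rose (log2 fold changes 1.00 and 0.40, adjusted p = 0.000284 and 0.00845), and Plvap lost its call when only the 8 week groups were fitted. Pericyte and smooth muscle genes gave 0 calls among 18 tested, although 16 had log2 fold changes below 0, with a median of -0.11 and -0.07 for the pericyte receptor Pdgfrb (adjusted p = 0.645). On GRCm38 with GENCODE vM21, the protein-coding genes Kdr, Vegfa, Ly6c1 and Vwf lie on chromosome 5 from 75932827 to 75978458, chromosome 17 from 46016993 to 46032369, chromosome 15 from 75044018 to 75048830 and chromosome 6 from 125546774 to 125686679.

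**Figure D2:**
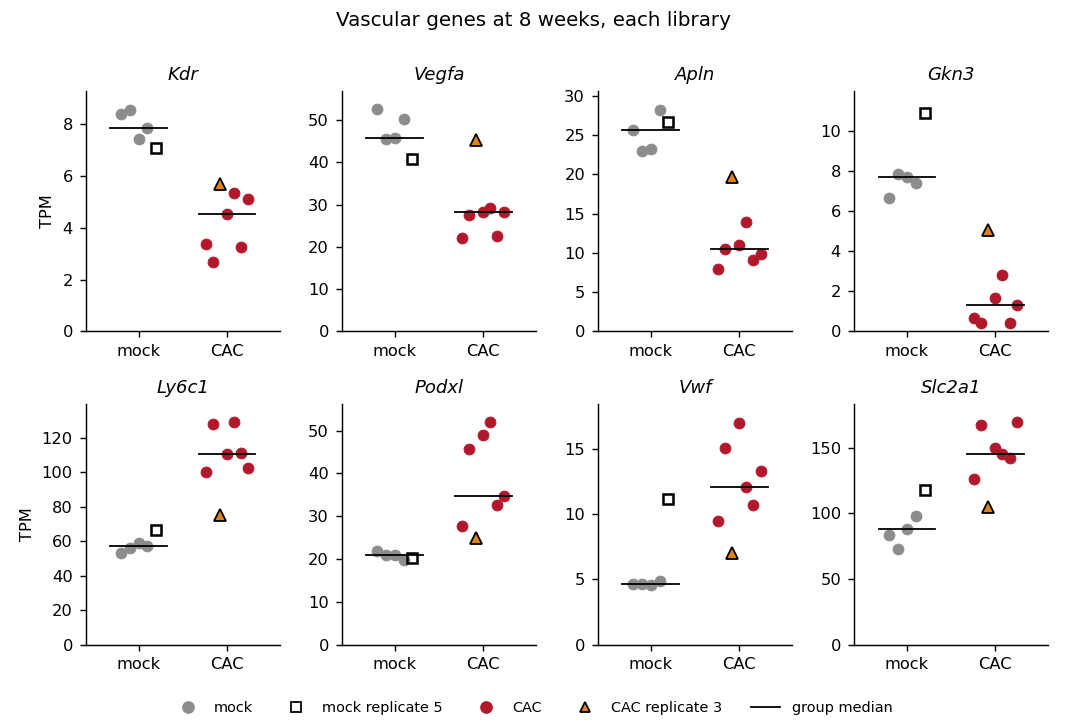
TPM (linear axis from 0) of 8 vessel genes in each library at 8 weeks. Grey points are mock, with replicate 5 as an open square, red points are CAC, with replicate 3 as an orange triangle, and lines are group medians. Kdr, Apln and Gkn3 lie lower in all CAC libraries than in all mock libraries and Ly6c1 and Podxl higher, and the triangle is the CAC value nearest to the mock libraries in all of these.

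Genes that choose between fuels changed without a common direction of the pathways. Of 30 glucose transport and glycolysis genes, 5 rose and 2 fell (4 fell without CAC replicate 5). Pdk4 and Pdk2, kinases that shut pyruvate out of the mitochondrion, rose (log2 fold changes 0.83 and 0.32, adjusted p = 0.00153 and 0.000313), and Slc2a4, the insulin-regulated glucose transporter, rose by 0.73 (adjusted p = 0.00233). Ldha, which makes lactate, fell by 0.25 (adjusted p = 0.00873). Among 20 lipid droplet and lipolysis genes, 3 rose and 2 fell. Pnpla2, the lipase that starts triglyceride breakdown, ranged from 16.1 to 43.2 TPM in CAC with a median of 28.8, and the mock values were 13.4, 15, 14.6, 15 and 20.9 TPM. CAC replicate 3 gave the lowest of these CAC values, inside the mock range, and the other 6 lay above all mock libraries (log2 fold change 0.80 ± 0.15 SE, adjusted p = 0.000301). Lipe, the next lipase of that chain, rose by 0.24 (adjusted p = 0.00451). Droplet coat genes went both ways. Plin4 rose, with CAC replicate 3 at 1.9 TPM and the other CAC libraries at 23.2 to 50.4 TPM. Plin2 fell by 0.37 (adjusted p = 0.00254), and the astroglial fatty acid carrier Fabp7 by 1.38 (adjusted p = 0.00356).

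Fatty acid synthesis genes fell more often than they rose: of 20 tested, 8 fell and 1 rose, and the median log2 fold change was -0.17. The risen gene encodes a transcription factor of this pathway and not an enzyme. Scd1, the desaturase that makes oleate, ranged from 85 to 115 TPM in CAC with a median of 110.2, and the mock values were 170.0, 129, 165, 147 and 220.4 TPM. The groups did not overlap, and replicate 3, at 115 TPM, lay with the other CAC libraries (log2 fold change -0.61 ± 0.13 SE, adjusted p = 0.00086). Acss2, which activates acetate, and the desaturase Fads1 also fell without overlap (log2 fold changes -0.32 and -0.24, adjusted p = 0.00109 and 0.00171). The phospholipid list gave 1 risen and 1 fallen gene of 21, near the 4.86% and 3.68% of all tested genes called higher and lower. The risen one, Etnppl, encodes the astrocytic enzyme that breaks down phosphoethanolamine. Its CAC values ranged from 2.74 to 29 TPM with a median of 22.8, and its mock values were 2.22, 2.65, 1.55, 1.52 and 2.84 TPM. CAC replicate 3 alone lay inside the mock range (log2 fold change 2.55 ± 0.38 SE, adjusted p = 9.92e-06).

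Of 20 tested cholesterol synthesis genes, 12 fell and 0 rose, the median log2 fold change was -0.29, and leaving out any 1 library gave 9 to 14. Hmgcs1, which makes the HMG-CoA used by the pathway, ranged from 145 to 222 TPM in CAC with a median of 163, and the mock values were 276, 285, 263, 227 and 262 TPM. The groups did not overlap, and the highest CAC value was that of replicate 3 (log2 fold change -0.61 ± 0.08 SE, adjusted p = 1.58e-06). Msmo1 and Idi1, later enzymes of the pathway, fell by 0.50 and 0.56 (adjusted p = 5.04e-05 and 5.15e-05), and Srebf2, the transcription factor that controls it, by 0.27 (adjusted p = 0.00691). Ch25h, which hydroxylates cholesterol to a signal that blocks that factor, rose from mock values of 0.332, 0.475, 0.643, 0.748 and 1.67 TPM to between 2.34 and 6.96 TPM, with a median of 4.73 (log2 fold change 1.71 ± 0.21 SE, adjusted p = 2.79e-07). CAC replicate 3 was high for Ch25h, at 6.25 TPM.

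The Hmgcs1 promoter is shown because it was the only window among 15 matched cholesterol genes with the sterol motif searched for, TCACNCCAC. It spans chr13:119690101-119690400 on the plus strand (RefSeq, GRCm38.p6), with the first base of the match, in capitals, at position -137:
Hmgcs1: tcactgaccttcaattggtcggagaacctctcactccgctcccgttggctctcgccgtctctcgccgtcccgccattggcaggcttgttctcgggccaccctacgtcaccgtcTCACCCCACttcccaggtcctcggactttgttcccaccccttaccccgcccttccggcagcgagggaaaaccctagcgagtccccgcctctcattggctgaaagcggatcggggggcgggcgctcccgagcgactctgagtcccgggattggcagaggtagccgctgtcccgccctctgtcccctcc
This motif was found in 1.24% of all 32851 windows. The pentamer CCAAT, the usual site of the factor NF-Y, was found in 14 of the 15 cholesterol genes (93.3%), against 37.4% of all windows and 42.3% of the 11114 tested genes with a window.

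Metal genes changed in both directions: of 22 metallothionein, iron and copper genes, 7 rose and 3 fell. Mt1, a small protein that binds zinc and copper, ranged from 661 to 1374 TPM in CAC with a median of 1032, and the mock values were 643, 663, 658.5, 638 and 751 TPM. CAC replicate 3 had the lowest CAC value, inside the mock range, and the other 6 lay above all mock libraries (log2 fold change 0.65 ± 0.12 SE, adjusted p = 0.00028). Mt2 rose by 0.70 (adjusted p = 0.000754). Slc40a1, ferroportin, the exporter through which iron leaves a cell, ranged from 2.89 to 4.31 TPM with a median of 3.87, against mock values of 7.6, 6.97, 7.01, 6.73 and 6.37 TPM. All CAC values, replicate 3 included, lay below all mock values (log2 fold change -0.73 ± 0.10 SE, adjusted p = 4.64e-06). Slc30a10, a manganese exporter, also fell without overlap (-0.44, adjusted p = 8.42e-05). Steap3, a reductase of endosomal iron uptake, fell by 0.51 (adjusted p = 0.0128) and lost its call without mock replicate 5 (adjusted p = 0.0536).

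The Mt1 and Mt2 promoters are shown because copies of the metal response motif, TGCACNC or TGCGCNC on either strand and in capitals, recur within them. They lie on the plus strand at chr8:94178839-94179138 and chr8:94172368-94172667 (RefSeq, GRCm38.p6):
Mt1: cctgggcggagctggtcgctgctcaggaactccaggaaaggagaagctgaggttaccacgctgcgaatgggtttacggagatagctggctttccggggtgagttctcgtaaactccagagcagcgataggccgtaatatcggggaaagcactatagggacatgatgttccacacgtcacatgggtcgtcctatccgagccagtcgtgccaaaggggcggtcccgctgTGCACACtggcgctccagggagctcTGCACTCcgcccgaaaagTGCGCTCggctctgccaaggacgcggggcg
Mt2: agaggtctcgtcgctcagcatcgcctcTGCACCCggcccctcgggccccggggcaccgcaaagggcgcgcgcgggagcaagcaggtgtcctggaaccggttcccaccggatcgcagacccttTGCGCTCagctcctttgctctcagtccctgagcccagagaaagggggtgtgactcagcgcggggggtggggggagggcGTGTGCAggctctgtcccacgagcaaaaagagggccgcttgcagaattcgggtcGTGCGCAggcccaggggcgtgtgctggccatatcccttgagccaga
The Mt1 window holds 3 matches and the Mt2 window 4, of which 0 overlap. At least 1 match was found in 8 of 16 matched genes of the metal list (50%), against 40.8% of tested genes and 25.7% of all windows, so the motif is common and its presence is a description only.

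**Figure D3:**
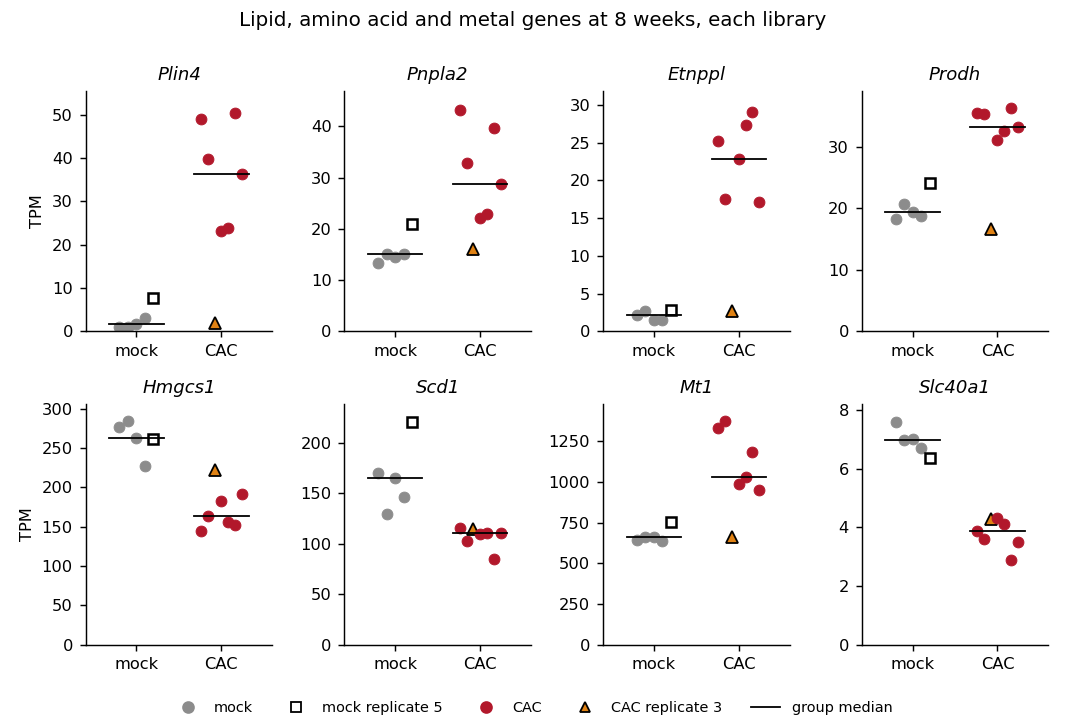
TPM (linear axis from 0) of 8 lipid, amino acid, sterol and metal genes in each library at 8 weeks, with the same marks. In Plin4, Pnpla2, Etnppl, Prodh and Mt1 the orange triangle of CAC replicate 3 lies among or below the mock points, and in Scd1 and Slc40a1 it lies with the other CAC points.

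Amino acid transport and breakdown genes gave 4 risen and 3 fallen of 30. The fallen ones were all transporters, and a transporter subunit was among the risen ones. Prodh, which starts proline breakdown, ranged from 16.7 to 36.3 TPM in CAC with a median of 33.3, and the mock values were 18.3, 20.7, 19.5, 18.8 and 24.2 TPM. The lowest CAC value was that of replicate 3, below all mock values, and the other 6 lay above all of them (log2 fold change 0.58 ± 0.11 SE, adjusted p = 0.000587). Glul, glutamine synthetase, rose by 0.26 (adjusted p = 0.0105). The glutamine transporter Slc38a3, the serine transporter Slc7a10 and the neutral amino acid exchanger Slc1a4 fell without overlap (log2 fold changes -0.49, -0.41 and -0.22, adjusted p = 0.000144, 0.000766 and 0.00469).

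Genes of the FOXO and ubiquitin ligase list, many of which drive muscle atrophy in cachexia, rose in 10 of 22 cases and fell in 0, with a median log2 fold change of 0.31 (13 without CAC replicate 3, 7 without mock replicate 5). Of the 10 risen genes, 4 (40%) also stand on the glucocorticoid list. Cited2 and Klf15, transcriptional regulators of fasting metabolism, rose by 0.53 and 0.76 (adjusted p = 2.05e-05 and 7.72e-05). The proteasome gave 3 risen subunits of 31, which became 6 without CAC replicate 3 and 0 without mock replicate 5. All 31 fold changes were above 0 but small, with a median of 0.08. Of 19 p53 and cell cycle exit genes, 5 rose, with 2 or 3 when any of 7 libraries (CAC replicates 1, 2 or 6 or mock replicates 1, 3, 4 or 5) was left out. Sesn1, a p53 target that restrains mTORC1, ranged from 52.8 to 92.8 TPM, with replicate 3 at the lower end, against 51.7 to 53.4 TPM in mock libraries (log2 fold change 0.50 ± 0.10 SE, adjusted p = 0.000446).

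Interleukin 6 family and STAT3 genes gave 7 risen and 0 fallen of 22, a median log2 fold change of 0.22, and 9 risen both without CAC replicate 3 and without mock replicate 5. Cebpd, an acute phase transcription factor, ranged from 8.02 to 13 TPM in CAC with a median of 8.42, and the mock values were 3.48, 1.27, 2.27, 2.81 and 4.39 TPM. The groups did not overlap, and replicate 3 lay among the other CAC libraries (log2 fold change 1.46 ± 0.26 SE, adjusted p = 0.00013). Osmr, the oncostatin M receptor, rose by 0.55 (adjusted p = 0.000807). Among interleukin 1, NF-kB and chemokine genes, 2 rose and 2 fell of 22, with 4 risen without mock replicate 5. Both risen genes, the receptor Il1r1 and the inhibitor Nfkbia, also stand on the glucocorticoid list and rose by 0.78 and 0.76 (adjusted p = 3.77e-05 and 0.00588). The chemokine Cxcl12 fell by 0.66 (adjusted p = 0.0103), with CAC replicate 3 at 51.1 TPM above the whole mock range and the other 6 at 14.7 to 35.4 TPM. It lost its call when only the 8 week groups were fitted.

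Other hormone lists gave calls in both directions. Of 19 thyroid hormone genes, 3 rose and 3 fell (1 fell without CAC replicate 1). Thra, the main thyroid hormone receptor of brain, and Crym, which binds the hormone in the cytosol, rose without overlap (log2 fold changes 0.30 and 0.62, adjusted p = 0.000207 and 0.00232). Dio2, the astrocytic deiodinase that activates the hormone, fell by 0.51 (adjusted p = 0.0115). Of 25 insulin, IGF and leptin signalling genes, 5 rose and 2 fell, with 3 risen without CAC replicate 6 or without mock replicate 5. The binding proteins Igfbp7 and Igfbp4 rose by 0.56 and 0.53 (adjusted p = 0.000313 and 0.00235), and Akt2, a kinase of insulin signalling, fell without overlap by 0.45 (adjusted p = 0.000366). Of 17 steroid receptor and local steroid control genes 1 rose and 1 fell, against 4.86% and 3.68% of all tested genes. Of 12 renin-angiotensin and natriuretic genes 1 rose and 1 fell, with 0 to 3 risen when any 1 library was left out. The fallen one, Mas1, the receptor for angiotensin 1-7, fell by 0.65 (adjusted p = 0.00513). Of 34 activin, BMP and TGF-beta genes 3 rose and 3 fell, with 1 to 5 risen when any 1 library was left out. Among the fallen, Inhba, a subunit of activin that neurons make with activity, fell by 0.76 (adjusted p = 0.00476).

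Glial genes fell more often than they rose. Of 14 microglia markers 6 fell and 0 rose, with a median of -0.33, and 3 fell without CAC replicate 6 or without mock replicate 5. The median was -0.20 without mock replicate 5, and it was -0.27 for NCAC against the same mock libraries. P2ry12, the ADP receptor of resting microglia, and Cx3cr1, the fractalkine receptor, fell without overlap (log2 fold changes -0.62 and -0.60, adjusted p = 0.000102 and 0.000204). Of 12 oligodendrocyte markers 4 fell and 0 rose. The log2 fold changes of 9 lay below 0 and those of 3 above 0, with a median of -0.26. Leaving out any of 7 libraries gave 2 fallen (CAC replicates 1, 6 or 7 or mock replicates 1, 3, 4 or 5). Ugt8a, which makes the myelin lipid galactosylceramide, fell by 0.72 (adjusted p = 0.00491), and the committed precursor genes Bcas1 and Enpp6 by 0.44 and 0.49 (adjusted p = 0.0092 and 0.0131). Astrocyte markers moved both ways, 2 risen and 4 fallen of 12 (2 fallen without CAC replicate 1). Reactive astrocyte genes gave 4 risen and 0 fallen of 16, among them Serpina3n, a secreted protease inhibitor with near-identical copies (log2 fold change 0.67, adjusted p = 0.00202).

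Neuronal lists ranged from 0 calls to 5 of 25. Immediate early genes (18), GABA and glycine receptors (18) and sodium, calcium and related channels (29) gave 0 calls each, with a log2 fold change of 0.14 for the activity gene Fos (adjusted p = 0.908). Of 24 synaptic vesicle genes 2 fell and 0 rose, a share near the 8.54% of all tested genes called in either direction (3.68% lower). Both, Rims1 and Unc13a, encode scaffold and priming proteins of the release site (log2 fold changes -0.35 and -0.35, adjusted p = 0.00294 and 0.0114). Rims1 ranged from 84.6 to 102 TPM in CAC with a median of 87.3, and the mock values were 116, 114, 117, 114 and 110.5 TPM, without overlap. Of 24 glutamate receptor genes 1 fell, a share near the 3.68% of all tested genes called lower. It was Grm3, a metabotropic receptor of astrocytes and neurons. Grm3 ranged from 36.5 to 52.9 TPM with a median of 44.8, against 69.4, 65.8, 73.5, 67.1 and 63.2 TPM in mock libraries. These values did not overlap (log2 fold change -0.61 ± 0.10 SE, adjusted p = 8.01e-05). Of 25 neurotrophin and late activity genes 4 fell and 1 rose (20%), with 2 fallen without CAC replicate 1, CAC replicate 6 or mock replicate 1. Nptx2, a pentraxin that clusters glutamate receptors, fell by 0.68 (adjusted p = 0.00183), with mock replicate 5 at 27.2 TPM inside the CAC range. Of 25 neuropeptide genes 4 fell and 0 rose (16%), with 1 or 2 fallen when any of 9 libraries (CAC replicates 1, 2, 5, 6 or 7 or mock replicates 1, 2, 4 or 5) was left out and 6 without CAC replicate 3. Npy, the peptide of an inhibitory neuron class, fell without crossing the mock values by 0.31 (adjusted p = 0.00718), and the alpha-2A adrenergic receptor Adra2a rose by 0.55 (adjusted p = 0.00242). Bdnf, the neurotrophin, fell by 0.57 (adjusted p = 0.0169) and lost its call when CAC replicate 1, CAC replicate 6, mock replicate 1 or mock replicate 4 was left out (adjusted p = 0.0618, 0.0596, 0.0534 and 0.0529).

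The matrix around neurons and vessels changed, with 7 of 37 extracellular matrix and basement membrane genes fallen and 2 risen. Hapln1, a link protein of the perineuronal matrix, fell without overlap (log2 fold change -0.38, adjusted p = 0.00261), as did Adamts4, a protease that cuts proteoglycans of that matrix (-0.64, adjusted p = 0.0018). Sparc, a collagen-binding protein of glia and endothelium, ranged from 271 to 426 TPM in CAC with a median of 357, and the mock values were 195, 214, 186, 195 and 232 TPM. The CAC values lay above all mock values, and the lowest was that of replicate 3 (log2 fold change 0.81 ± 0.16 SE, adjusted p = 0.000473). Among 30 cytoskeletal genes 2 rose and 3 fell. Tnnc1, a troponin better known from slow muscle, fell by 0.73 without overlap (adjusted p = 0.000964). Tubb2b, a tubulin of young neurons, fell by 0.67 (adjusted p = 0.00186), with CAC replicate 3 at 203 TPM and the other 6 at 69.5 to 131 TPM against 146 to 212 TPM in mock, and lost its call when only the 8 week groups were fitted.

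Genes of protein synthesis and respiration shifted little. Of 74 ribosomal protein genes 8 rose, 64 had fold changes above 0 and the median was 0.07, but trimmed-mean scaling left 1 call and leaving out any 1 library gave 1 (without mock replicate 4) to 10 (without CAC replicate 3). Rps14 rose by 0.27 (adjusted p = 0.00221), and ribosomal protein genes share reads with their pseudogenes. Nuclear genes of the respiratory chain gave 3 risen of 38, with 1 without mock replicate 5 and 6 without mock replicate 2. Cox4i1, a subunit of complex IV, rose by 0.16 (adjusted p = 0.00811) and lost its call under trimmed-mean scaling. The tricarboxylic acid cycle (21 genes) and heat shock genes (23) gave 0 calls each. Rbm3, an RNA-binding protein induced by cold, rose by 0.60 (adjusted p = 0.00495), the only call among 20 genes of that list, with CAC replicate 3 at 71.3 TPM and the other 6 at 83 to 133 TPM against 58.5 to 79.7 TPM in mock.

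Genes outside these lists gave some of the firmest differences. Tmem252, a transmembrane protein of little known function, ranged from 5.53 to 12 TPM in CAC with a median of 7.32, and the mock values were 1.55, 0.868, 1.61, 1.67 and 2.01 TPM. The groups did not overlap, and replicate 3 had the median CAC value (log2 fold change 1.76 ± 0.25 SE, adjusted p = 4.21e-06). Rhob, a small GTPase that responds to stress, and Tgm2, a protein crosslinking enzyme, rose by 0.66 and 0.82 (adjusted p = 4.41e-06 and 1.07e-05). Apod, a lipid-binding apolipoprotein of glia, ranged from 173 to 497 TPM with replicate 3 lowest, against 139.8 to 223.5 TPM in mock libraries (log2 fold change 1.13 ± 0.17 SE, adjusted p = 1.56e-05). Emp2, a membrane protein, lay at 11.5 to 19.6 TPM in CAC and at 22.6, 23.2, 22.9, 23.5 and 24.6 TPM in mock libraries, with replicate 3 the highest CAC value (log2 fold change -0.66 ± 0.09 SE, adjusted p = 4.64e-06). Ddah1, which clears an inhibitor of nitric oxide synthase, Pltp, a phospholipid transfer protein, and Nes, an intermediate filament of progenitor and vessel cells, fell without overlap (log2 fold changes -0.38, -0.65 and -0.75, adjusted p = 8.18e-06, 8.01e-05 and 8.01e-05). Serpinb1a, an inhibitor of neutrophil proteases, and Alpl, the alkaline phosphatase of brain vessels, fell by 1.07 and 0.94 (adjusted p = 4.64e-06 and 2.8e-05). Ptgds, the prostaglandin D synthase of meninges and oligodendrocytes, rose by 0.77 (adjusted p = 0.00273), with mock replicate 5 at 619 TPM and the other 4 mock libraries at 1031 to 1187 TPM.

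Other comparisons in which these CAC or mock libraries also stand give their own values for the same genes. CAC differed from NCAC at 8 weeks in 881 genes (5.84%), 643 higher (4.26%) and 238 lower (1.58%), with 1649 without CAC replicate 3 and 422 without NCAC replicate 5. NCAC and mock differed in 0 genes (0%, limma with Benjamini-Hochberg adjustment), and 742 had an unadjusted p under 0.05. CAC differed from mock at 6 weeks in 240 genes (1.59%), of which 179 were higher (1.19%). The change of the difference from 6 to 8 weeks passed the test for 0 genes (0%), with 215 at an unadjusted p under 0.05, so the larger count at 8 weeks does not show that any named gene differed more at that time. Kdr was -0.55 against NCAC (adjusted p = 0.007) and -0.68 against mock at 6 weeks (adjusted p = 0.0055). Ly6c1 was 0.94 and 0.80 on the same log2 scale (adjusted p = 1.25e-08 and 1.11e-05), Slc40a1 -0.49 and -0.44 (adjusted p = 0.00213 and 0.0271) and Hmgcs1 -0.52 and -0.39 (adjusted p = 2.94e-05 and 0.00862). Cebpd was 1.13 and 1.13 (adjusted p = 0.00407 and 0.0201), and Etnppl 2.29 and 1.94 (adjusted p = 7.85e-05 and 0.0055).

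CAC replicate 3 departed from the other 6 CAC libraries in blood genes and, apart from these, in most genes of the comparison. For each CAC library, genes were called in a fit without it, and its own value was placed on a scale on which the mock mean is 0 and the mean of the other 6 CAC libraries is 100. Of the 1826 genes called without replicate 3, its median position was 22.3, with 12.8 for the genes higher in CAC and 37.7 for those lower. Its values lay inside the mock range for 1065 genes (58.3%) and reached a position of 75 or more for 198 (10.8%). The median positions of the other CAC libraries were 134, 111, 92.2, 51.9, 142 and 94.1 for replicates 1, 2, 4, 5, 6 and 7, so replicate 5 was the next lowest, with 38.4% of its genes inside the mock range and 3.48% to 13.2% in the remaining 5. For these libraries the mean set to 100 includes replicate 3, which moves that mark toward mock and raises their positions. Each mock library was placed over the genes called without it, with the mean of the other mock libraries at 0 and the mean of all CAC libraries at 100. Their medians were 1.48 to 26.1. That scale has other end points and other genes than the scale of replicate 3, so the values are not directly comparable. These positions describe the libraries and are not a test.

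**Figure D4:**
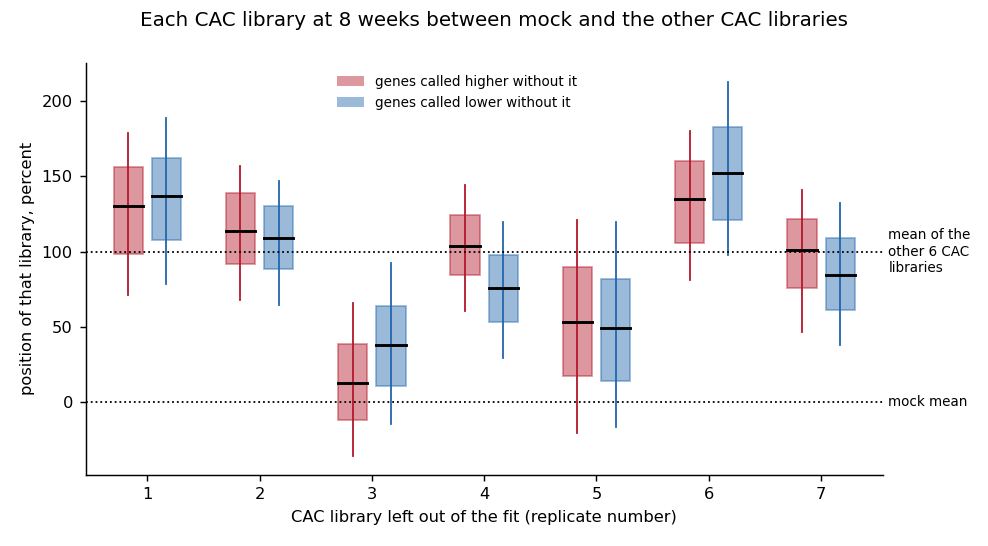
Position of each CAC library, in percent of the distance from the mock mean (0) to the mean of the other 6 CAC libraries (100) on the log2(TPM + 1) scale, over the genes called without that library. Boxes span the quartiles, whiskers the 10th to 90th percentiles and black lines are medians, for genes higher and lower in CAC. Replicate 3 lies lowest, with medians of 12.8 and 37.7, and replicate 5 next. For every library but replicate 3, the mean set to 100 includes replicate 3.

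The median position of replicate 3 varied between lists, as it did for the other CAC libraries, and these differences were not tested. Over the 39 lists with at least 4 called genes it ran from -14.5 (8 interferon response genes) to 65.4 (4 reactive astrocyte genes), against 18.8 to 137 over 35 lists for replicate 5 and 65.8 to 189 over 20 lists for replicate 6. It was -13.7 over 6 antioxidant genes and -7.46 over 4 clock output genes. Its median position was 9.77 over 22 glucocorticoid induced genes, 0.571 over 13 FOXO and ubiquitin ligase genes, 10.2 over 5 lipid droplet genes and 1.38 over 18 endothelial genes. It was 35.1 over 13 cholesterol synthesis genes, 40.4 over 9 interleukin 6 genes, 47.8 over 10 metal genes and 48.9 over 10 matrix genes. It was 64.5 over 9 fatty acid synthesis genes. Single genes spanned the whole scale. Replicate 3 stood at 1.9 TPM for the droplet coat gene Plin4 (others 23.2 to 50.4, mock 1.04 to 7.7), at 11.3 TPM for the sulfotransferase Sult1a1 (others 41.3 to 72.3, mock 9.55 to 17.4) and at 7.32 TPM for the dioxygenase Phyhd1 (others 21.3 to 35.9, mock 6.86 to 10.4). For Cebpd, Tmem252 and Ch25h its positions were 99.3, 97.9 and 126, and for Lcn2, the siderophore-binding lipocalin, it had the highest value of all, 13.2 TPM against 1.99 to 4.68 TPM in the other 6 and 0.302 to 0.911 TPM in mock libraries.

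Of 23 erythroid list genes in the table, replicate 3 had the highest CAC value for 15 and lay above all mock libraries as well for 13. It had the lowest CAC value for 2, Isca1 and Xpo7, and lay between the other CAC libraries for 6. The haem synthesis gene of red cells, Alas2, was at 80.8 TPM against 0.567 to 9.24 TPM in the other 6 CAC libraries and 2.79 to 7.58 TPM in mock libraries. Bpgm, which tunes oxygen release by haemoglobin, was at 61.8 TPM (others 43.4 to 46.1), and Ube2l6, an ISG15-conjugating enzyme also abundant in red cell precursors, at 24.4 TPM (others 6.18 to 9.01). The red cell anion exchanger gene Slc4a1 reached 1.13 TPM. None of the 4 haemoglobin genes differed between the groups, and Hba-a2 went from -1.38 (adjusted p = 0.485) to -2.37 without replicate 3 (adjusted p = 0.116). These are multi-copy genes whose reads may be shared. Haemoglobin took 2.25% of the TPM of replicate 3, which alone gives every other gene a shift of -0.0328 on the log2 scale. The granzymes Gzmg, Gzmf and Gzmd, near-identical members of a cluster, were at 11.6, 9.63 and 7.78 TPM in replicate 3 and at 0 in the other 6, while the T and natural killer cell genes Cd3e, Nkg7 and Cd8a were at 0.201, 0.315 and 0.0198 TPM. The class II antigen presentation genes Cd74 and H2-Eb1 were at 53.4 and 23.7 TPM (others 5.56 to 11.7 and 1.29 to 3.71). The part of these values in the position of replicate 3 was not tested. With TPM rescaled without the haemoglobin genes the comparison gave 1326 calls, and with a haemoglobin score as a term 1105.

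**Figure D5:**
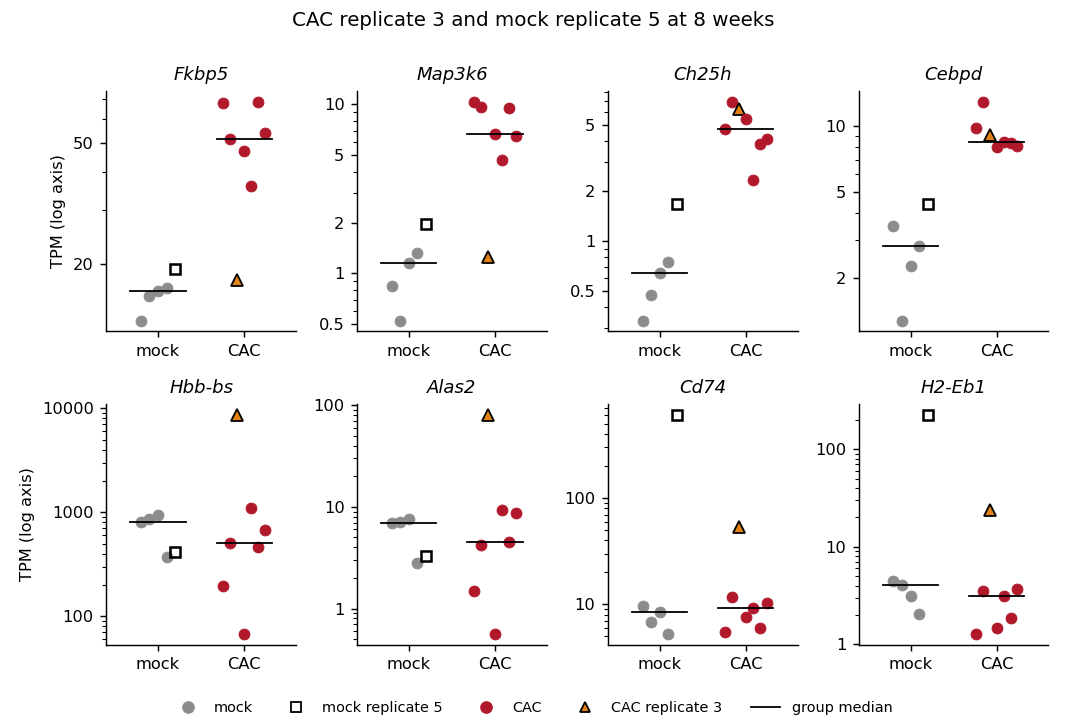
TPM (log axis) of 8 genes in each library at 8 weeks, with the same marks and group medians as lines. In Fkbp5 and Map3k6 the triangle of CAC replicate 3 lies with the mock points and in Ch25h and Cebpd with the CAC points, in Hbb-bs and Alas2 it lies above all others, and in Cd74 and H2-Eb1 the square of mock replicate 5 lies highest with the triangle next.

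Leaving out replicate 3 kept 1275 of the 1289 calls, ended 14 and added 551. The glucocorticoid co-chaperone Fkbp5 went from 1.44 to 1.66, Plin4 from 2.94 to 3.46 and Kdr from -0.78 to -0.84 on the log2 scale. Interferon response genes had 3 fallen members of 20 in the full comparison and 8 without replicate 3, and 3 without both that library and mock replicate 5. For all 8, the level of replicate 3 lay inside the range of the 5 mock libraries, which mock replicate 5 widens. Against the other 4 mock libraries it lay inside the range for 4 and above it for 4, such as Gbp2, at 7.62 TPM against 4.11 to 6.05 TPM. The endothelial list went from 13 to 18 called members. No called gene named here changed direction.

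Mock replicate 5 bore on genes of lymphocytes and interferon. The light chain genes Igkc, Iglv1 and Iglc1 stood at 652, 248 and 196 TPM, whereas Iglv1 reached 0.184 TPM at most in the other 4 mock libraries. Igkc and similar light chain genes share sequence, so reads may be shared. Cd74 was at 611 TPM against 5.32 to 9.75 TPM, and the class I genes H2-K1 and H2-D1 at 203 and 336 TPM against 17.8 to 23.2 and 32.5 to 52.8 TPM. The T cell genes Cd3e and Cd3g were at 3.2 and 7.49 TPM. Interferon response genes, 3 fallen of 20 with a median of -0.40, gave 0 calls and a median of -0.11 without it, and Gbp2 went from -0.91 (adjusted p = 0.00676) to -0.57 (adjusted p = 0.0976). Aif1, a microglial and macrophage protein, went from -0.71 (adjusted p = 0.00427) to -0.52 (adjusted p = 0.0504). Ighm, the heavy chain of IgM, stayed lower in CAC without it: the CAC values ranged from 16.1 to 39.7 TPM with a median of 21.7, the mock values were 55.5, 54.9, 65.7, 56.6 and 256 TPM, and the log2 fold change went from -1.77 to -1.35 (adjusted p = 1.31e-06 and 1.01e-05). For several genes that rose in CAC the same library was the highest mock value, as in Vwf (11.2 TPM), Pnpla2 (20.9 TPM) and Mt1 (751 TPM), and without it their fold changes were 1.16, 0.90 and 0.69. Without both libraries 1321 genes differed.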

How the data were processed

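Neocortical RNA of tumour-bearing and mock mice was extracted with Trizol, made into stranded mRNA libraries and sequenced on a NovaSeq, per the labels' protocols. The authors deposited a table of TPM values for 47643 genes in 62 libraries, each column summing to 1000000. Per the submitters' processing notes, reads were placed on mm10. Aligner, quantifier, annotation and strand setting were not given in the sources used here.

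Groups and replicate numbers came from the sample labels. The labels do not say that each replicate is a separate mouse, so p-values measure the spread between these libraries. Gene symbols that a spreadsheet had turned into dates (27) were left out, and 45108 symbols matched GENCODE vM21. A gene was tested where its mean reached 1 TPM in any of 12 groups (15092 genes). Such a filter also passes genes through the group in which they are high.

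The deposited TPM values were converted here to log2(TPM + 1), and 1 mean per group was fitted over all 62 libraries with limma 3.58.1 (trend) in R 4.3.3. P-values were Benjamini-Hochberg adjusted over all tested genes, and a gene was called at an adjusted p under 0.05. TPM are not counts, so no count model was run. In the low values, 86.4% of 207437 were whole reads within 0.05, which gave the depth estimates. The fit was tested on simulated data. Alternatives were a pseudocount of 0.1, other level filters, trimmed-mean scaling, haemoglobin-free rescaling, a haemoglobin term, array weights, a fit to the compared groups only, a replicate block and leaving out each library. Leaving out CAC replicate 3 and mock replicate 5 together was added after seeing the data.

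The comparison, gene lists and tests were chosen with earlier results of these data known. For each list described, up to 3 risen and 3 fallen called genes of lowest p could be named, or the first members tested where none was called. Of the genes on no list, 12 risen and 12 fallen of lowest p could be named, and so could the 10 genes farthest above and the 10 farthest below their group in CAC replicate 3 and in mock replicate 5, and all erythroid genes. Some of these genes are not reported here. Markers named to describe these libraries (Cd3e, Cd3g, Cd8a, Nkg7, Slc17a7, Mlana and Pmel) and Sgk1 fall outside that rule. Promoters came from a RefSeq table (GRCm38.p6), searched in Python 3.11.15.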

Additional observations from a re-analysis of the deposited data

Results flagged for a closer look

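The genes named here were checked in the 7 CAC and the 5 mock libraries for a single library that stood apart from its group. Such a library was flagged where its gap to the next value, over the group's range in log2(TPM + 1), exceeded Dixon's 95% critical value. Of 263 groups checked, 63 held such a library (24%). Chance flags about 1 in 20 groups, and many of these genes were named because of CAC replicate 3 or mock replicate 5.

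CAC replicate 3 stood apart in 27 genes. It was low for 15. Among glucocorticoid and fuel genes these were Map3k6 (1.25 TPM), Sult1a1 (11.3), Hif3a (2.47), Pdk4 (13.9), Plin4 (1.9), Lipe (4.73) and Etnppl (2.74). The others were Lrg1 (5.12), Prodh (16.7), Rps14 (341), Gstm5 (251), Gjb6 (59.8), Rtp1 (0.786), Phyhd1 (7.32) and Gabrr2 (0.308). It was high for 12: Lcn2 (13.2 TPM), Vegfa (45.2), the red cell genes Bpgm (61.8) and Ube2l6 (24.4), the granzymes Gzmg (11.6), Gzmf (9.63) and Gzmd (7.78), Nkg7 (0.315), Cd74 (53.4), H2-Eb1 (23.7), Igkc (5.01) and Gbp2 (7.62).

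Mock replicate 5 stood apart in 31 genes. It was high for 28. In immune genes the values were 611 TPM for Cd74, 226 for H2-Eb1, 203 for H2-K1, 336 for H2-D1, 18.8 for Gbp2, 18.4 for Gbp3 and 12 for Gbp7. Immunoglobulin genes stood at 652 TPM for Igkc, 248 for Iglv1, 196 for Iglc1, 157 for Igkv14-126 and 256 for Ighm. Lymphocyte genes stood at 7.49 TPM for Cd3g, 8.37 for Nkg7, 0.401 for Gzmg, 0.402 for Gzmf and 0.681 for Gzmd. Microglial Cx3cr1 and Aif1 were at 65.6 and 23.8 TPM. The remaining high genes also rose in CAC: Sult1a1 (17.4 TPM), Lrg1 (5.29), Il1r1 (3.24), Vwf (11.2), Pnpla2 (20.9), Mt1 (751), Gjb6 (81.7), Tgm2 (17.7) and Apod (223). It was low for Opalin (18.3 TPM), Nptx2 (27.2) and Ptgds (619).

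Other libraries stood apart in 1 gene each or a few. CAC replicate 2 was high for Cebpd (13 TPM), and CAC replicate 6 was low for Scd1 (85 TPM). CAC replicate 5 was low for Slc17a7 (986 TPM) and at 0.166 TPM for Iglc1, and CAC replicate 7 was at 0.194 TPM for Iglv1. These 2 light chain values are above 0 in a single CAC library each and rest on few reads.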

How the results depend on the processing

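The count of genes differing between CAC and mock was 1289. It was 3420 with array weights and 517 with a replicate block, and it ranged from 747 to 1826 over the fits that leave out 1 library (747 without CAC replicate 6, 798 without CAC replicate 1 and 1826 without CAC replicate 3). The other alternatives lay within 1.5 times: 1400 with trimmed-mean scaling, 1326 with haemoglobin-free rescaling, 1105 with a haemoglobin term, 1240 and 1206 with the other level filters, 916 with only the groups compared, 1252 with a pseudocount of 0.1 and 1321 without both CAC replicate 3 and mock replicate 5. The count for CAC against NCAC was 881. It was 2514 with array weights, 302 with a replicate block, 236 with only the groups compared and 1654 without both libraries, and it ranged from 422 (without NCAC replicate 5) to 1649 (without CAC replicate 3) over the fits that leave out 1 library. The number was also 586 and 506 without CAC replicates 1 and 6, and 1451 and 531 without NCAC replicates 3 and 4. The change from 6 to 8 weeks gave 0 calls in each alternative. The causes were not tested.

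Replicate numbers did not pair the libraries: the correlations of deviations between CAC and mock libraries of the same number were -0.07, -0.11, -0.11, -0.04 and 0.02 for replicates 1 to 5, and CAC replicates 6 and 7 have no mock partner. The replicate block ended 8 of the 108 calls among the 132 named genes: Cxcl12, Tie1, Fabp7, Bcas1, Enpp6, Gbp2, Gbp3 and Isca1 (adjusted p = 0.0753, 0.0616, 0.0604, 0.0599, 0.0561, 0.0545, 0.108 and 0.0619).

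Of those 108 calls, 92 passed in every alternative, 101 passed without any 1 library, and 0 changed direction. Fitting only the groups compared ended 10: Cxcl12, Eng, Plvap, Steap3, Bdnf, Tubb2b, Gbp2, Gbp3, Gbp7 and Isca1 (adjusted p = 0.135, 0.0672, 0.0629, 0.0531, 0.0705, 0.0655, 0.109, 0.12, 0.12 and 0.0529). Without mock replicate 5, 6 ended: Steap3, Aif1, Gbp2, Gbp3, Gbp7 and Isca1 (adjusted p = 0.0536, 0.0504, 0.0976, 0.195, 0.118 and 0.122), and without CAC replicate 3 as well 1 ended, Isca1 (adjusted p = 0.0579). Without CAC replicate 6, Bdnf, Gbp3 and Isca1 ended (adjusted p = 0.0596, 0.0548 and 0.0519), and Bdnf also without CAC replicate 1 or mock replicates 1 or 4 (adjusted p = 0.0618, 0.0534 and 0.0529). Trimmed-mean scaling ended Cox4i1 (adjusted p = 0.145). Iglv1, Iglc1 and Igkv14-126, which were not called with all libraries, passed without any 1 of mock replicates 1 to 4. Of 3256 list counts, 2798 stayed within 1.5 times of the full comparison. The depth of 46400000 to 49700000 reads leaves few reads behind values well under 1 TPM.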
